A study of Mus musculus with 11 samples.

Results

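The interleukin-1 (IL-1) family was followed through 10 genes in the colon wall of suckling mice. They were picked by name: 4 ligands (Il1a, Il1b, Il18 and Il33), the receptor antagonist Il1rn, the soluble IL-18 inhibitor Il18bp, and 4 receptor chains (Il1r1, Il1rap, Il1rl1 and Il18r1). The deposited table holds 35683 genes, and all 10 were found in it, as 44 transcripts. RNA came from the whole thickness of the colon of 2-week-old mice. Of these, 6 were Tnfr1-/-, without TNFR1, through which tumour necrosis factor does most of its signalling, and 5 were wild type. Each library is 1 mouse. By its title, the series asks how deletion of the receptor acts in early life. The labels give no strain, sex, litter or batch and no other allele or treatment for either group.

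IL-1 family ligands are alarm cytokines. IL-1α and IL-1β, the products of Il1a and Il1b, bind IL1R1 and recruit the shared chain IL1RAP, which starts signalling through MYD88 to NF-κB. IL-1β and IL-18 are made as precursors that caspase-1 cuts inside inflammasomes, while IL-33 is kept in the nucleus and released from damaged cells. In the gut, IL-18 is known mainly from epithelial cells and IL-33 mainly from stromal cells, whereas Il1a and Il1b are induced in myeloid and stressed epithelial cells. The brakes are of 2 kinds: IL1RN occupies IL1R1 without signalling, and IL18BP captures free IL-18. IL-33 is read by ST2, the product of Il1rl1, whose soluble form works as a decoy.

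Values are abundance, which is TPM scaled by 1 size factor a library, so levels of different genes are on a scale per transcript length. The deleted gene checked the labels. Tnfrsf1a, which encodes TNFR1, lay between 19.0 and 28.0 in the Tnfr1-/- libraries and between 61.7 and 73.1 in the wild-type libraries, a log2 fold change of -1.57 (SE 0.10, limma adjusted p = 8.5e-05). It was the only gene called among 15079 tested. Markers fixed for each cell type placed the tissue as colon with some squamous epithelium: the summed abundance of 10 epithelial markers was 6586 to 8605 in Tnfr1-/- and 6878 to 11048 in wild-type libraries, and that of 10 squamous markers was 469 to 2005 in Tnfr1-/- and 685 to 1052 in wild-type libraries. Wild-type replicates 1 and 2 stood apart, with epithelial sums of 9961 and 11048 and the lowest fibroblast sums of the 11 libraries (1560 and 1538). Wild-type replicate 1 alone also had a summed abundance of 620 for 16 genes of the interferon-gamma response, against 101 to 179 in the other 10 libraries. Results for the IL-1 family are therefore given with and without these 2 mice, which were left out with earlier results of these data known. In whole tissue, fewer cells of a type and less RNA per cell cannot be told apart.

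The family spanned a wide range of levels, and its order was set by Il18 and Il1rn. Averaged over the 11 libraries, Il18 stood at 80.8, higher than 89.3% of the genes tested, and Il1rn at 37.9, higher than 77.1%. Together they made up 74.5% to 87.3% of the family's summed abundance in every library. Below them came Il1r1 (8.47), Il1rap (4.85), Il33 (3.83), Il18bp (2.90), Il1rl1 (2.69), Il1b (1.18), Il18r1 (0.947) and Il1a (0.898). The ranges of neighbours in this order did not overlap for Il1rn over Il1r1 or for Il1r1 over Il1rap, and overlapped for the other 7 pairs. Il18 was nevertheless above Il1rn in 11 of 11 libraries. From Il1rap down, the order of neighbours held in 4 to 10 of the 11 libraries, and Il1b, Il18r1 and Il1a were not separated beyond their spread.

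**Figure D1:**
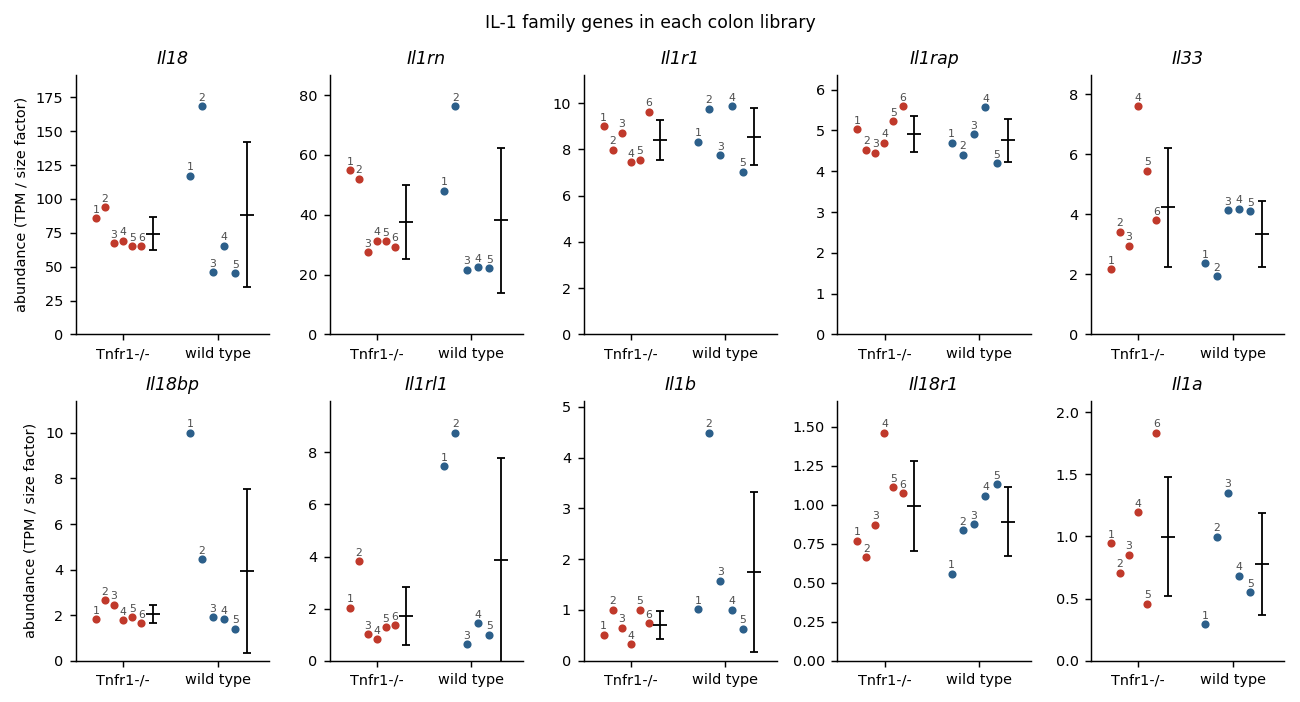
Abundance (TPM divided by a size factor) of each gene of the family in the 6 Tnfr1-/- libraries (red) and the 5 wild-type libraries (blue), in order of mean level, with replicate numbers beside the points; black bars are the group mean and SD, cut at 0 where the SD exceeds the mean. Il18 lies between 64.9 and 93.9 in Tnfr1-/- and between 45.04 and 168 in wild type, and wild-type replicates 1 and 2 are the highest points for Il18 and Il1rl1.

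Loss of TNFR1 was not accompanied by a detected change of any gene of the family. Of the 10 genes, 9 had an abundance of at least 1 in at least 5 libraries and were tested, and Il1a, which reached 1 in 3 libraries, was not. None of the 9 was called (limma, adjusted p under 0.05), where 0.00663% of all genes tested were called, a background so low that 0 of 9 is no result about the family. At an unadjusted p under 0.05 there were also 0 of 9, against 9.37% of all genes. The 2 groups of libraries overlapped for all 10 genes, whereas they did not overlap for 1.49% of all genes tested. By fitted sign, 4 genes were higher and 5 lower in Tnfr1-/-, with a median log2 fold change of -0.02, beside 7224 higher, 7855 lower and a median of -0.01 over all genes.

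How tightly the data bound a difference depended on the gene. For the receptor chains Il1r1 and Il1rap the 95% intervals of the fold change were 0.847 to 1.15 and 0.909 to 1.17. For the IL-33 receptor gene Il1rl1 the interval was 0.285 to 1.63, and for Il1b it was 0.364 to 1.02. These are ratios of value + 0.5, which understate changes of low genes. With a pseudocount of 0.1 the log2 fold change of Il1b was -0.949, against -0.712 with 0.5. The intervals therefore bound Il1r1 and Il1rap closely and leave wide room for Il1rl1 and Il1b, which a p-value above the threshold does not tell. The intervals and the limma p-values rest on the spread between these mice, and the labels do not say whether any share a litter.

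**Figure D2:**
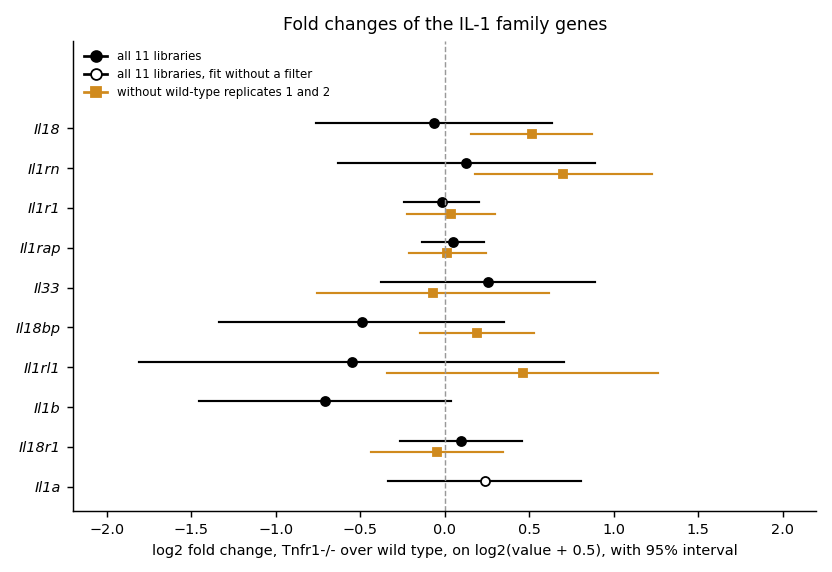
Log2 fold change, Tnfr1-/- over wild type, on log2(value + 0.5), with its 95% interval for each gene from limma over all 11 libraries (black; open symbol for Il1a, taken from the fit without a filter on low values) and without wild-type replicates 1 and 2 (orange; Il1a and Il1b were below the filter there). With all libraries every interval includes 0; without those 2 mice the values of Il18 (0.51) and Il1rn (0.70) lie above 0, where leaving out the 2 highest wild-type libraries of both genes could only move them up.

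Among the ligands, Il18 was the most abundant, and the groups differed in their spread more than in their centre. That spread came from wild-type replicates 1 and 2: the SD of wild-type replicates 3 to 5 was 11.6, against 12.4 in Tnfr1-/-. In Tnfr1-/- colons Il18 ran from 64.9 to 93.9 with a median of 68.2, against 117, 168, 45.9, 65.6 and 45.04 in wild-type replicates 1 to 5. The wild-type mice thus included both the 2 highest and the 2 lowest values, with the Tnfr1-/- mice between. Means were 74.4 ± 12.4 in Tnfr1-/- against 88.4 ± 53.4 in wild-type mice (SD, n = 6 and n = 5), a log2 fold change of -0.06 (SE 0.32, limma adjusted p = 0.973). Without wild-type replicates 1 and 2 the direction turned, to a log2 fold change of 0.51 (SE 0.16, limma adjusted p = 0.190), which did not pass. These 2 mice hold the 2 highest wild-type values of Il18 and of Il1rn, so leaving them out could only raise the difference of both genes.

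Il33, the alarmin held in the nucleus of stromal cells, was far less abundant than Il18 in every library. It ran from 2.16 to 7.59 in Tnfr1-/- colons with a median of 3.61, against 2.37, 1.94, 4.13, 4.19 and 4.11 in wild-type replicates 1 to 5. Wild-type replicates 1 and 2, the highest for Il18, were thus among the 3 lowest for Il33, and Tnfr1-/- replicate 4 was the highest. That gave a log2 fold change of 0.25 (SE 0.29, limma adjusted p = 0.813) between means of 4.23 ± 1.97 in Tnfr1-/- against 3.35 ± 1.10 in wild-type mice (SD, n = 6 and n = 5). It was 0.08 without Tnfr1-/- replicate 4 and -0.07 without wild-type replicates 1 and 2. The ratio of Il18 to Il33 ranged from 9.12 to 39.6 in Tnfr1-/- and from 11.0 to 86.9 in wild-type libraries, and was highest in wild-type replicate 2.

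The inducible ligands were near the floor of the table. Il1a, which encodes IL-1α, ran from 0.457 to 1.83 in Tnfr1-/- colons with a median of 0.898, against 0.296, 0.998, 1.35, 0.685 and 0.550 in wild-type replicates 1 to 5. These values rest on 15.1 to 93.8 reads per library, estimated from the deposited means, and the groups overlapped over most of their range. An exact two-sided permutation test of Il1a between the groups gave p = 0.403. The fit without a filter gave a log2 fold change of 0.24 (SE 0.26, limma adjusted p = 0.829), and the difference was 0.10 without Tnfr1-/- replicate 6 and 0.08 without wild-type replicate 1.

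Il1b, which encodes IL-1β, had the largest fitted difference of the family. It ran from 0.324 to 1.003 in Tnfr1-/- colons with a median of 0.694, against 1.02, 4.49, 1.57, 1.003 and 0.633 in wild-type replicates 1 to 5. Wild-type replicate 2 stood far above the rest, and wild-type replicates 1 to 3 lay above all Tnfr1-/- libraries. Means were 0.705 ± 0.270 in Tnfr1-/- against 1.74 ± 1.57 in wild-type mice (SD, n = 6 and n = 5), on 10.8 to 107 estimated reads per library. The fit gave a log2 fold change of -0.71 (SE 0.34, 95% interval -1.46 to 0.03, limma adjusted p = 0.551), and an exact two-sided permutation test gave p = 0.0671, or 0.535 adjusted over all genes. Without wild-type replicate 2 the log2 fold change was -0.37 (limma adjusted p = 0.531), and without both wild-type replicates 1 and 2 Il1b no longer passed the filter.

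Set against each other, the summed constitutive ligands exceeded the summed inducible ones in every mouse, mainly through Il18. Il33 alone did not do so in every mouse: in wild-type replicate 2 it was 1.94, below the Il1b of 4.49. The summed abundance of Il18 and Il33 over that of Il1a and Il1b was 26.8 to 60.4 in Tnfr1-/- libraries (median 49.4) and 90.8, 31.0, 17.1, 41.3 and 41.6 in wild-type replicates 1 to 5. The lowest Tnfr1-/- value was that of replicate 6, which had the highest Il1a, and the lowest wild-type value was that of replicate 3, which had the second highest Il1b and a low Il18. No test was made of this ratio.

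The promoters of the 4 ligands are shown so that the inducible pair, Il1a and Il1b, can be set beside Il18 and Il33 in sequence. Each line gives the 250 bases before a RefSeq start on GRCm38.p6, in the direction of transcription, with matches in capitals, searched on both strands. The first motif is TATAAA, the letters of the TATA box. The second is TGANTCA, an element bound by AP-1 factors, and the third is GATAA, an element known from GATA factors. No printed matches overlap. RefSeq's start of Il18 lies upstream of every Il18 start in GENCODE M21. The nearest of these, at position 50554827, held 20.2% to 25.1% of the gene's abundance and that at 50565374 held 51.0% to 76.6%, so the window printed for Il18 is not that of most of its measured RNA. The Il1a sequence is chr2:129309973-129310222 on the minus strand, and Il1b is chr2:129371140-129371389 on the minus strand. Il18 is chr9:50554450-50554699, and the upstream and downstream starts of Il33 are chr19:29924863-29925112 and chr19:29945540-29945789, all on the plus strand.
Il1a: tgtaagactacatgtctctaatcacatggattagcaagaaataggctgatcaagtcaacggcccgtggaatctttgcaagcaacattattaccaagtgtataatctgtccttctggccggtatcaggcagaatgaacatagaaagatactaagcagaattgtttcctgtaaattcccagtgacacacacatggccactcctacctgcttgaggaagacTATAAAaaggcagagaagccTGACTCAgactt
Il1b: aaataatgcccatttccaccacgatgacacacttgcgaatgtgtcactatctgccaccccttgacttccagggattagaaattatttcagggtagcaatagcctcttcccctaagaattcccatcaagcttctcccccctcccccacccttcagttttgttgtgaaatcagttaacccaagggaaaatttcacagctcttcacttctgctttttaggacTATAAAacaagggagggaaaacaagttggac
Il18: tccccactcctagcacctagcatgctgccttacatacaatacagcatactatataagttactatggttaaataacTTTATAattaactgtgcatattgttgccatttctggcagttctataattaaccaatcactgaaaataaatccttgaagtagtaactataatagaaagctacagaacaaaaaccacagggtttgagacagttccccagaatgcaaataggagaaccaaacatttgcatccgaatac
Il33 upstream: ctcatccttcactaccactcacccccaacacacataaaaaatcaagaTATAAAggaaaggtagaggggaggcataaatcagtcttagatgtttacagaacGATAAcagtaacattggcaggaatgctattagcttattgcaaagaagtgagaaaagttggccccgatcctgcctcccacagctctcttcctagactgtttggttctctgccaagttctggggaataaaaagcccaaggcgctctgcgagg
Il33 downstream: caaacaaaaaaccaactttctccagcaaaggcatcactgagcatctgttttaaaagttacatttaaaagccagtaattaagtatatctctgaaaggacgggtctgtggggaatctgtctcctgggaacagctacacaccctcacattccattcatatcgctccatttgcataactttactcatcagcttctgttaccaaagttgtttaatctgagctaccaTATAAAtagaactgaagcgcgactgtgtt
TATAAA began 32 bases before the start of Il1a, 31 before that of Il1b and 29 before the downstream start of Il33. Of 32851 RefSeq promoters in the table, 2.36% had TATAAA beginning 25 to 40 bases before the start, and 12.4% had it anywhere in the 250 bases. In Il18 and in the upstream Il33 promoter the letters occurred 175 and 203 bases before the start. The AP-1 letters occurred in Il1a, 12 bases before the start, and are found in 6.75% of promoters. GATAA, found in 22.6%, occurred in the upstream Il33 promoter. The matches are letters in a window and say nothing of which factor binds there. Transcripts from the upstream Il33 start held between 0.03% and 99.99% of the gene's abundance in single libraries, so the split between the Il33 starts could not be read from these short single-end reads.

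Il1rn, the antagonist of IL1R1, followed Il18 across the libraries. It ran from 27.5 to 54.9 in Tnfr1-/- colons with a median of 31.2, against 48.1, 76.2, 21.6, 22.5 and 22.1 in wild-type replicates 1 to 5. Replicates 1 and 2 of both genotypes formed the high set, and the other wild-type libraries lay below all 6 Tnfr1-/- libraries. Means were 37.7 ± 12.3 in Tnfr1-/- against 38.1 ± 24.1 in wild-type mice (SD, n = 6 and n = 5), with a log2 fold change of 0.13 (SE 0.35, limma adjusted p = 0.946). Leaving out wild-type replicates 1 and 2 put the log2 fold change at 0.70 (SE 0.23, limma adjusted p = 0.203), which did not pass. Il1rn exceeded the summed inducible ligands in every library, by a factor of 11.4 to 37.7 in Tnfr1-/- (median 20.9) and of 7.40 to 36.5 in wild type (median 13.9).

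Il18bp, which encodes the soluble trap for IL-18, was even among Tnfr1-/- mice and uneven among wild-type mice, through wild-type replicates 1 and 2. The SD of wild-type replicates 3 to 5 was 0.267, against 0.408 in Tnfr1-/-. It ran from 1.65 to 2.65 in Tnfr1-/- colons with a median of 1.87, against 10.003, 4.46, 1.92, 1.83 and 1.42 in wild-type replicates 1 to 5. Only the first 2 wild-type values lay outside the Tnfr1-/- range on the high side. Means were 2.05 ± 0.408 in Tnfr1-/- against 3.93 ± 3.60 in wild-type mice (SD, n = 6 and n = 5), with a log2 fold change of -0.49 (SE 0.38, limma adjusted p = 0.725). The value was -0.10 without wild-type replicate 1 and 0.19 without both of those mice. As a share of Il18, Il18bp was 2.12% to 3.67% in Tnfr1-/- and 8.54%, 2.65%, 4.17%, 2.79% and 3.14% in wild-type replicates 1 to 5. Only wild-type replicate 1 lay far outside the other shares.

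The IL-1 receptor chains were the steadiest genes of the family. Il1r1, which encodes the signalling receptor for IL-1, ran from 7.45 to 9.64 in Tnfr1-/- colons with a median of 8.36, against 8.33, 9.77, 7.75, 9.86 and 7.04 in wild-type replicates 1 to 5. The highest library exceeded the lowest by 1.40 times, giving a log2 fold change of -0.02 (SE 0.10, limma adjusted p = 0.973). Il1rap, the accessory chain that the IL-1, IL-33 and IL-36 receptors share, ran from 4.46 to 5.59 in Tnfr1-/- colons with a median of 4.87, against 4.70, 4.41, 4.90, 5.56 and 4.20 in wild-type replicates 1 to 5. Its highest library exceeded its lowest by 1.33 times, with a log2 fold change of 0.05 (SE 0.08, limma adjusted p = 0.902). Both genes kept to this narrow band in wild-type replicates 1 and 2 as well.

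Il18r1, which encodes the ligand-binding chain of the IL-18 receptor, was low in all mice. It ran from 0.665 to 1.46 in Tnfr1-/- colons with a median of 0.974, against 0.559, 0.836, 0.875, 1.06 and 1.13 in wild-type replicates 1 to 5. The groups overlapped, with a log2 fold change of 0.10 (SE 0.16, limma adjusted p = 0.899). The partner chain Il18rap, from the wider list of the family, was at 0.573 ± 0.061 in Tnfr1-/- against 0.612 ± 0.096 in wild-type mice (SD, n = 6 and n = 5) and did not reach the filter. The ligand Il18 was above 45 in the same libraries on the same scale.

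Il1rl1, which encodes the IL-33 receptor ST2, varied the most among the receptors. It ran from 0.828 to 3.81 in Tnfr1-/- colons with a median of 1.32, against 7.46, 8.75, 0.625, 1.44 and 1.00 in wild-type replicates 1 to 5. Wild-type replicates 1 and 2 had the highest values, Tnfr1-/- replicates 2 and 1 followed, and the other 7 libraries lay at 1.44 or below. The highest library exceeded the lowest by 13.99 times. Means were 1.72 ± 1.10 in Tnfr1-/- against 3.85 ± 3.92 in wild-type mice (SD, n = 6 and n = 5), with a log2 fold change of -0.55 (SE 0.57, limma adjusted p = 0.795), which turned to 0.46 without wild-type replicates 1 and 2.

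Most Il1rl1 RNA was assigned to the soluble receptor. The transcript Il1rl1-203, which encodes 337 residues and lacks the membrane part, ran from 0.487 to 3.34 in Tnfr1-/- colons with a median of 0.724, against 6.08, 7.48, 0.432, 0.968 and 0.586 in wild-type replicates 1 to 5. Transcripts for the 567-residue membrane receptor summed to 0.306 to 0.506 in Tnfr1-/- libraries and to 0.726, 0.794, 0.193, 0.470 and 0.414 in wild-type replicates 1 to 5. The soluble form was therefore the main product in 10 of 11 libraries, and it carried most of the excess of wild-type replicates 1 and 2. Its log2 fold change without a filter was -0.65 (limma adjusted p = 0.83). Mast cells are a known source of ST2. The summed abundance of 8 mast cell markers was 13.6 to 28.0 in Tnfr1-/- libraries and 15.8, 26.0, 17.6, 30.0 and 16.9 in wild-type replicates 1 to 5, and the part of mast cells in the value of Il1rl1 was not tested.

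Il1rl1 has a pair of known promoters, and both are shown beside what the transcripts can say of them. In mouse cells the distal start is known from mast cells and the proximal start from fibroblasts. A single annotated transcript begins at the distal start (position 40429570 of chromosome 1 on GRCm38): Il1rl1-205, a soluble form of 1216 bases, which was at 0 in all 11 libraries. No membrane transcript is annotated from that start, so use of the starts was not measured. The 3 transcripts that begin between 40439627 and 40440628 were assigned 58.2% to 100% of the gene's abundance. The distal sequence is chr1:40429320-40429569 and the proximal one chr1:40439379-40439628, both on the plus strand, from RefSeq on GRCm38.p6, with capitals for GATAA on either strand.
Il1rl1 distal: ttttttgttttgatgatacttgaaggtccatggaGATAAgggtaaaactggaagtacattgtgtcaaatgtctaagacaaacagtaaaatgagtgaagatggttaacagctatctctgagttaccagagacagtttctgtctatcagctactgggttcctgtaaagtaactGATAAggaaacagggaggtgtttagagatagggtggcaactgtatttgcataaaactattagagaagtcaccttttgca
Il1rl1 proximal: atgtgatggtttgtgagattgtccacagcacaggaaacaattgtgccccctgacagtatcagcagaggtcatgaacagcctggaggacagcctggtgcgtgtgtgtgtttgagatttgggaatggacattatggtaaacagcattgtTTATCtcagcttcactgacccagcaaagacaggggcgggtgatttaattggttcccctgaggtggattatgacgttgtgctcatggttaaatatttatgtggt
GATAA occurred at 2 places in the distal sequence and at 1 in the proximal sequence, beside 22.6% of all promoters with at least 1 match.

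Under the filter 13 of the 44 transcripts were tested, of which 0 were called and 0 had an unadjusted p under 0.05, beside 0.00902% and 8.26% of all transcripts tested. The transcripts of the other genes split along known products. Il1rap was almost all the 570-residue membrane form (89.5% to 95.3% of the gene), with 3.78% to 10.5% for the 360-residue soluble form. Il1rn had 2 groups of starts: 33.2% to 44.5% of its abundance came from the distal one, which yields the 159-residue intracellular antagonist among others, and the rest from the proximal one, which yields the 178-residue secreted antagonist. The secreted form Il1rn-201 was at 18.5 ± 5.82 in Tnfr1-/- against 17.6 ± 10.8 in wild-type mice (SD, n = 6 and n = 5), and the intracellular form Il1rn-204 at 9.41 ± 3.24 in Tnfr1-/- and 10.3 ± 5.94 in wild type. Both forms were highest in wild-type replicate 2 and high in Tnfr1-/- replicates 1 and 2. Transcripts for full-length IL-18 precursor (192 residues) held 74.9% to 79.8% of Il18 in every library.

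Single transcripts of Il18bp and Il1b differed in opposite directions without passing. Il18bp-202, which has its own upstream start, ran from 0.634 to 0.726 in Tnfr1-/- colons with a median of 0.674, against 0.576, 0.542, 0.496, 0.374 and 0.484 in wild-type replicates 1 to 5. The groups did not overlap, which held for 1 of the 41 transcripts of the family above 0 in any library and for 0.667% of all such transcripts. Its log2 fold change without a filter was 0.25 (limma adjusted p = 0.81). The excess of wild-type replicates 1 and 2 lay instead in Il18bp-201, at 0.631 to 1.69 in Tnfr1-/-, against 7.45 and 3.51 in these 2 mice and 0.519 to 1.36 in the other wild-type libraries.

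The Il1b transcript was Il1b-201, which encodes IL-1β. It ran from 0.324 to 0.636 in Tnfr1-/- colons with a median of 0.486, against 1.02, 2.96, 1.57, 1.003 and 0.633 in wild-type replicates 1 to 5. The groups met at a single point, since the lowest wild-type library lay just below the highest Tnfr1-/- library. The part of Il1b that is not Il1b-201 was mainly Il1b-202, a non-coding piece of 379 bases with about 1.30 estimated reads per library. In the fit without a filter Il1b-201 had a log2 fold change of -0.89 (limma adjusted p = 0.66), and 6.07% of all transcripts in that fit had an unadjusted p under 0.05, as did 3 of 41 of the family. The authors' deposited table gives it a log2 fold change of -1.60, a p-value of 0.00155 and a q-value of 0.644. That fold change equals the log2 ratio of the group means, 0.474 in Tnfr1-/- and 1.44 in wild type, where the wild-type mean includes the 2.96 of replicate 2. It is not on log2(value + 0.5), a scale that understates changes of low genes. Its size is therefore not like that of the -0.89. Il1b-201 was the 1 transcript with a p-value under 0.05 among 25 of the family in the authors' deposited table, where the share over all transcripts is 4.39%.

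**Figure D3:**
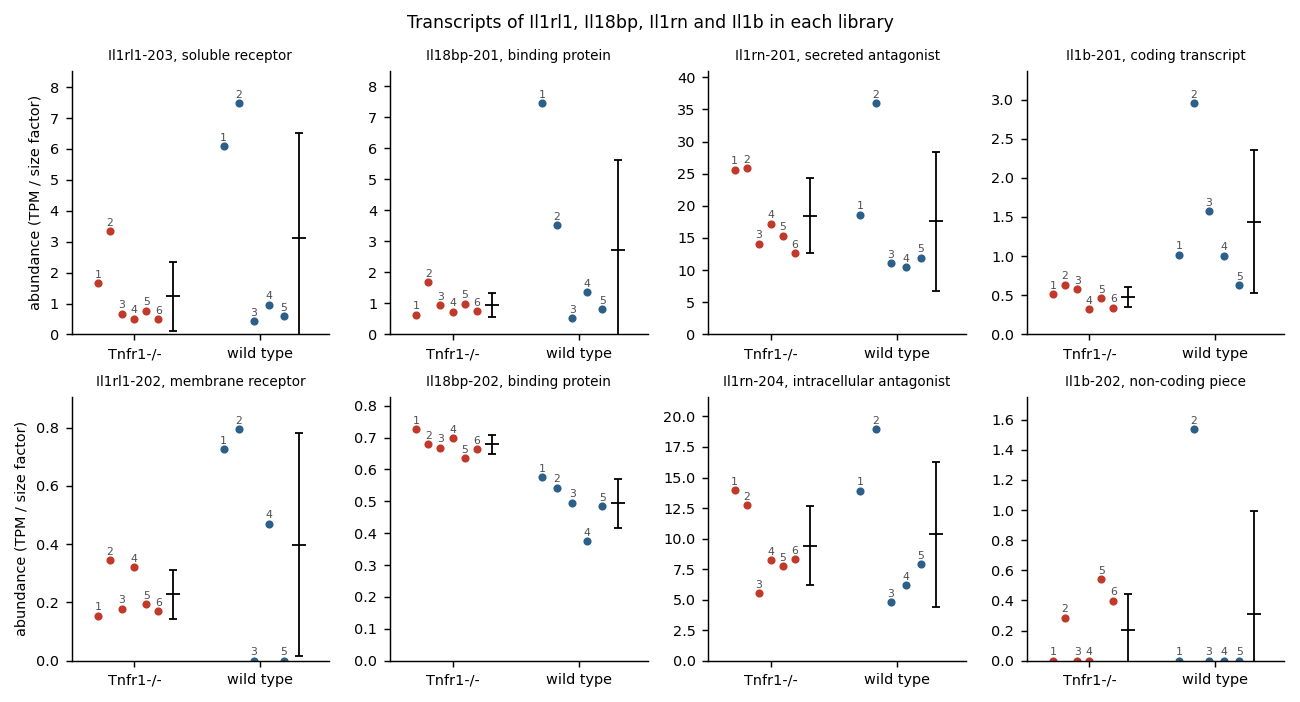
Abundance of 8 transcripts in the 6 Tnfr1-/- (red) and 5 wild-type (blue) libraries, with replicate numbers and black bars for the group mean and SD, cut at 0. The columns show Il1rl1, Il18bp, Il1rn and Il1b. Wild-type replicates 1 and 2 stand out in Il1rl1-203 (6.08 and 7.48) and Il18bp-201 (7.45 and 3.51), and Il1b-201 stays at or below 0.636 in every Tnfr1-/- library.

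Reads of overlapping genes limit some of these values. By gene span, introns included, 5 of the 10 overlap genes on the opposite strand: Il1rap for 15672 bases, Il1a for 8217, Il18 for 4507 and 355 with a pair of genes, Il1b for 1243 and Il18bp for 80. Il1r1 overlaps a predicted gene on its own strand for 6480 bases, and a stranded library cannot tell their reads apart where they share sequence. The libraries were stranded, per the labels' protocols, but whether the quantification used the strand is not given in the sources used here, so reads from the antisense partners may be included.

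Across libraries the family differed in how far wild-type replicates 1 and 2 lay from the rest. The mean of these 2 mice over the mean of the other 9 was 5.45 for Il1rl1, 3.73 for Il18bp, 2.13 for Il18 and 1.91 for Il1rn. For Il1b it was 3.34, through wild-type replicate 2 alone (4.49), since wild-type replicate 1 was at 1.02, below wild-type replicate 3 at 1.57. It was 1.09 for Il1r1, 0.927 for Il1rap, 0.696 for Il18r1, 0.678 for Il1a and 0.512 for Il33. This is a description of 2 mice and was not tested. Krt20, a keratin of mature surface epithelium, was 136 to 229 in Tnfr1-/- libraries. It was 422 and 384 in these 2 wild-type mice and 117 to 151 in the other wild-type libraries. The ratio of Il18 to Krt20 was 0.396 to 0.496 in Tnfr1-/-, against 0.278 and 0.438 in wild-type replicates 1 and 2. In the other wild-type libraries that ratio was 0.355 to 0.434, so wild-type replicate 1 had the lowest of all libraries. Against another epithelial marker, Epcam, the 2 mice lay above the other wild-type libraries. Il18 was 8.66% to 13.2% of Epcam in Tnfr1-/-, against 12.7% and 17.8% in wild-type replicates 1 and 2. In the other wild-type libraries it was 6.07% to 9.22%. All 10 epithelial markers had a lower fitted value in Tnfr1-/- colons, with an unadjusted p under 0.05 for 2 and no call. Over all genes tested, 5.17% were lower with such a p. Once both mice were left out, 2 of the 10 markers were lower. The part of epithelial content in the values of Il18, Il1rn and Il1rl1 was not tested.

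The low ligand Il1a had another pattern. Its highest library, Tnfr1-/- replicate 6 at 1.83, also had the highest squamous marker sum, 2005, and its lowest Tnfr1-/- library, replicate 5 at 0.457, had the lowest, 469. The other libraries did not keep this order. Tnfr1-/- replicate 2 had an Il1a of 0.710 with a squamous sum of 1661, while wild-type replicate 3 had 1.35 with 1052. The lowest Il1a of all, 0.296 in wild-type replicate 1, came with a sum of 747. All 10 squamous markers were detected and all 10 were higher in Tnfr1-/- by fitted sign, 3 at an unadjusted p under 0.05 and none called. Over all genes tested, 4.2% were higher with such a p. The median log2 fold change of the 10 markers was 0.56. Without wild-type replicates 1 and 2 it was 0.60, with 0 of 10 lower. Of 6 neutrophil markers, Csf3r, Cxcr2 and Retnlg were below the filter, and the sum of all 6 was 27.7 to 92.5 in Tnfr1-/- and 20.4 to 80.2 in wild-type libraries. The highest sums were those of Tnfr1-/- replicate 6, where S100a8 (39.9) and S100a9 (35.9) were highest, and of wild-type replicate 2, where Ly6g was highest (61.2). The part of squamous tissue and of neutrophils in the value of Il1a was not tested.

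**Figure D4:**
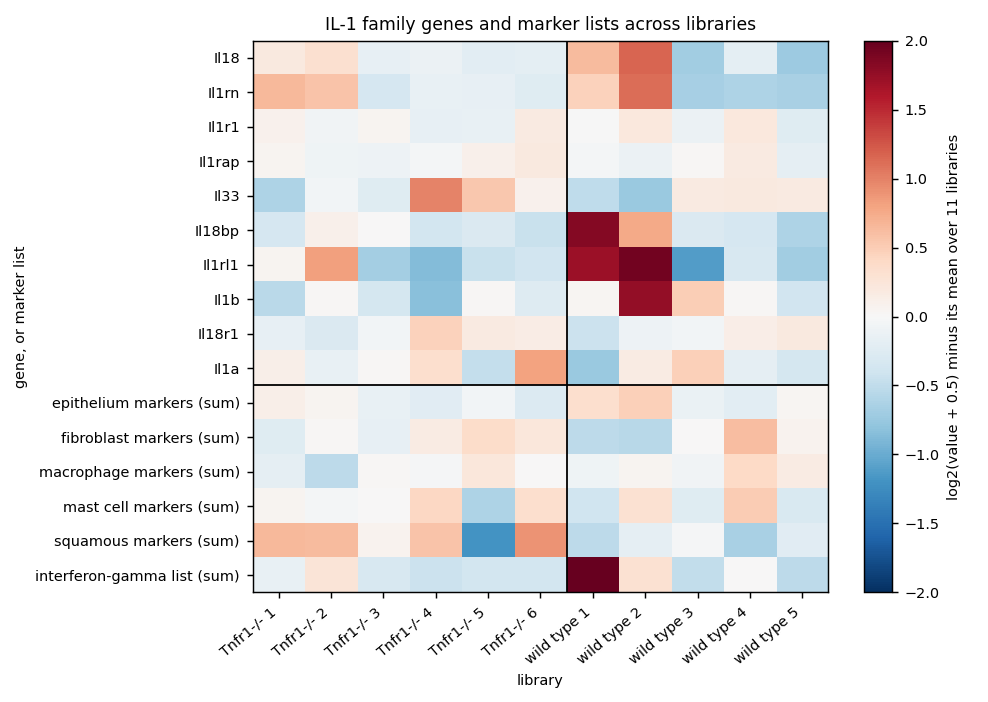
Colour gives log2(value + 0.5) minus its mean over the 11 libraries, for the 10 genes of the family (above the line) and for the summed abundance of 6 lists (below it), in the Tnfr1-/- libraries (left of the line) and the wild-type libraries (right). Wild-type replicates 1 and 2 are above the mean for Il18, Il1rn, Il18bp and Il1rl1 and below it for Il33 and the fibroblast sum, and wild-type replicate 1 is far above it for the interferon-gamma list.

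Genes with the most similar pattern were sought among 10725 named protein-coding genes with a mean abundance of at least 5. Pearson's r on log2(value + 0.5) over the 11 libraries is given first, as a description. The r over the 9 libraries without wild-type replicates 1 and 2 follows it, also as a description. Neighbours named are those with the 3 highest r among the 10725 genes. How high r gets for unrelated genes in so wide a search was not tested. Il18 ran closest to Eps8 (0.99 and 0.98), an actin-capping protein of microvilli, then to Cnksr1 and Rcor1. Il1rn ran closest to Prdx6 (0.99 and 0.98), a peroxidase, then to Mad2l1bp and Dgka. Il1rl1 ran closest to Plac8 (0.98 and 0.93), then to Gda, a guanine deaminase, and Capza2. For these 3 genes the likeness was nearly as close without the 2 mice that stood apart. The 9 libraries are among the 11 by which the neighbours were picked, so the second r is no separate check.

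For Il18bp the nearest were Ubd, a ubiquitin-like protein induced by interferon-gamma (0.98 and 0.92), Rnf213 (0.97 and 0.70) and the immunoproteasome subunit Psmb8 (0.97 and 0.60), and for Il1b they were D2hgdh (0.88 and 0.52), Sept5 (0.84 and 0.21) and Nudt9 (0.82 and 0.57). Without the 2 mice Ubd kept a close likeness, while the other 5 had an r of 0.21 to 0.70. Il1a ran with Sostdc1 (0.94 and 0.94), Ccl27a, a chemokine of keratinocytes (0.92 and 0.90), and Apoe (0.89 and 0.89). Il33 ran with Zfp251, Rab11fip5 and Sesn3, with r from 0.88 to 0.89 over 11 libraries and from 0.83 to 0.86 over 9. The remaining genes had neighbours as well: Lrig1, Dazap1 and Thrap3 for Il1r1, Sap30bp, Lmod1 and Ube2e3 for Il1rap, and B3gnt8, Zfp282 and Ubtf for Il18r1, with r from 0.85 to 0.93 over 11 libraries and from 0.83 to 0.92 over 9.

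The rest of the pathway was read from 6 lists. None of their genes was called, and each list is given by its counts beside those of all genes tested, of which 4.2% were higher with an unadjusted p under 0.05 and 5.17% were lower with such a p. Of 11 other ligands and receptors of the family, 8 were tested, 6 were higher and 2 lower in Tnfr1-/-, and 1 had an unadjusted p under 0.05. Their median log2 fold change was 0.11, or 0.27 without wild-type replicates 1 and 2, where 0 of 8 were lower. That gene was Il1f9, which encodes the epithelial cytokine IL-36γ, at 2.51 ± 0.560 in Tnfr1-/- against 1.54 ± 0.312 in wild-type mice (SD, n = 6 and n = 5), with a log2 fold change of 0.55 (limma adjusted p = 0.384). Its Tnfr1-/- libraries lay between 1.55 and 2.97 and its wild-type libraries between 1.19 and 2.03, so the groups overlapped. Il1f5, which encodes the IL-36 receptor antagonist, and the decoy receptor Il1r2 had fold changes of 0.46 and 0.28 on the log2 scale and overlapped as well. The squamous marker sums given above for the 11 libraries stand beside these 3 genes, and their part was not tested.

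Of 14 genes of receptor signalling, all were tested, 6 were higher and 8 lower, and 2 of the lower had an unadjusted p under 0.05. Without wild-type replicates 1 and 2, 6 of 14 were lower, and the median log2 fold change was 0.03, against -0.01 with them. Irak2, a kinase of the MYD88 complex, was at 13.5 ± 1.15 in Tnfr1-/- against 16.4 ± 1.17 in wild-type mice (SD, n = 6 and n = 5), with a log2 fold change of -0.26 (limma adjusted p = 0.336). Tab1 and Tab3, partners of the kinase TAK1, had log2 fold changes of -0.21 and -0.13. The adaptor Myd88, by contrast, was at 25.3 ± 1.49 in Tnfr1-/- and 24.2 ± 3.35 in wild type, and was named after its values were seen.

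Of 16 genes of inflammasomes and processing enzymes, 14 were tested, 4 were higher and 10 lower, and 4 of the lower had an unadjusted p under 0.05. Pycard, the adaptor ASC, was at 202 ± 14.2 in Tnfr1-/- against 256 ± 40.5 in wild-type mice (SD, n = 6 and n = 5), with a log2 fold change of -0.33 (limma adjusted p = 0.393). Nlrp6, an epithelial sensor, and Casp1, the enzyme that cuts the IL-1β and IL-18 precursors, had log2 fold changes of -0.30 and -0.21 (limma adjusted p = 0.475 and 0.492). The median over the list was -0.16, and -0.003 without wild-type replicates 1 and 2, where 7 of 14 were lower. Nlrp3, the sensor best known for IL-1β, was at 0.191 ± 0.096 in Tnfr1-/- and 0.230 ± 0.042 in wild type, below the filter.

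Downstream of the receptors, 9 of 14 NF-κB targets of IL-1 were tested, 2 higher and 7 lower, and of the lower 2 had an unadjusted p under 0.05. The median log2 fold change was -0.09, and without wild-type replicates 1 and 2 it was 0.08, with 2 of 8 genes lower. The serum amyloid gene Saa3 had an abundance of 5.58 ± 0.731 in Tnfr1-/- against 11.3 ± 4.73 in wild-type mice (SD, n = 6 and n = 5), with a log2 fold change of -0.87 (limma adjusted p = 0.343). Ccl2, a monocyte chemokine, was at 0.764 ± 0.370 in Tnfr1-/- and 1.38 ± 0.365 in wild type, with a log2 fold change of -0.61 (limma adjusted p = 0.462), and the prostaglandin synthase Ptgs2 had a log2 fold change of -0.34. Wild-type libraries of Saa3 ran from 5.89 to 17.8, and the highest was replicate 1.

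The response genes of IL-18 and of IL-33 were read from lists of 16 and 15 genes. All 9 of 16 genes tested from the IL-18 and interferon-gamma list were lower in Tnfr1-/- by fitted sign, with a median log2 fold change of -0.61, but none had an unadjusted p under 0.05, and 1 of 9 was lower without wild-type replicates 1 and 2 (median 0.13). Gbp3 and Irgm1, which were among the 3 with the smallest p, had log2 fold changes of -0.61 and -0.42. Ifng itself was at 0.520 in wild-type replicate 1 and at most 0.078 elsewhere. From the IL-33 and type 2 list 7 of 15 genes were tested, 6 higher and 1 lower, with a median log2 fold change of 0.14 and none at an unadjusted p under 0.05, and the median was also 0.14 without wild-type replicates 1 and 2. The summed abundance of the 15 was 65.9 to 105 in Tnfr1-/- libraries, against 272, 241, 58.8, 88.7 and 37.3 in wild-type replicates 1 to 5. The 3 with the smallest p were Rora (0.22), the epidermal growth factor family member Areg (-0.42) and Retnla (0.33). The type 2 cytokines Il4, Il5 and Il13 were at or below 0.539 in every library, and Il9 was listed at 0 in all.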

How the data were processed

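RNA was measured in 11 colons, 6 Tnfr1-/- and 5 wild type. Trizol extracts were turned into stranded mRNA libraries read for 75 bases from a single end, per the labels' protocols. CASAVA, kallisto, sleuth and mm10 are named, without versions, in the submitters' processing notes. Each deposited value of the authors is a signal, namely TPM scaled by a size factor of its library. The authors' deposited p-value, q-value and log2 fold change come from their own test of each transcript, and the mean they deposited is a natural log of normalized counts. That mean, with a fragment length of 200 bases, gave a common factor from abundance to reads for all libraries. By this factor the libraries hold about 35.3 M reads on average. The estimated reads are thus on a normalized scale and do not follow the depth of single libraries. Most values were not whole reads, so no count test was run.

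Repeated lines were dropped (584 transcripts) and transcripts were summed per Ensembl gene. Transcripts without a gene (97, 0.031% of abundance) were left out. Genes with a value of at least 1 in at least 5 libraries were compared with limma 3.58.1 in R 4.3.3 on log2(value + 0.5), two-sided, with Benjamini-Hochberg adjustment over 15079 genes or 33276 transcripts and a call at an adjusted p under 0.05. This scale understates changes of low genes. Intervals are at 95%. Exact permutation tests covered 462 splits, with a smallest p of 0.0022. The fit was tested on simulated data. Python 3.11.15, pandas 2.3.3 and scipy 1.17.1 were used otherwise. Starts and products are from GENCODE M21 on GRCm38, which matched 96.6% of transcripts; promoters are from RefSeq, 17 for the 10 genes.

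The genes and lists were chosen with earlier results of these data known. Named genes are the 10, Tnfrsf1a, the 3 genes of each list with the smallest p, and for each of the 10 the 3 genes with the most similar pattern; pseudogenes, predicted and sex-linked genes were not named, and 1 gene that the rule picked is not reported here. Epithelial, fibroblast, mast cell, squamous and neutrophil markers, and single genes such as Krt20, Il18rap, Nlrp3, Ifng and the type 2 cytokines, are named from those lists after their values were seen. Alternatives were other pseudocounts, filters, scalings and weights, the replicate number as a block, leaving out libraries, and coding transcripts only.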

Additional observations from a re-analysis of the deposited data

Results flagged for a closer look

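A single value was flagged among the 20 groups checked (10 genes in each of the 2 genotypes), and chance alone flags about 1 in 20. Il1b in wild-type replicate 2 was at 4.491, while the next wild-type library was at 1.573, so that this library lay far from the other 4 of its group. The same library had 2.96 of Il1b-201 and 1.54 of the non-coding Il1b-202.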

How the results depend on the processing

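No gene of the family was called under any of the alternatives run, and the limma adjusted p of Il1b ranged from 0.339 to 0.748 over 18 of them. The number of genes called, 1, was 3 with sample quality weights and ranged from 1 to 2 when single libraries were left out. The number of transcripts called, 3, ranged from 1 to 10 without single libraries and was 5 without both wild-type replicates 1 and 2. The sign of several log2 fold changes turned. With sample quality weights the log2 fold change was 0.322 for Il18 and 0.057 for Il1r1. Without both wild-type replicates 1 and 2 it was 0.514 for Il18, -0.070 for Il33, 0.191 for Il18bp, 0.037 for Il1r1, 0.460 for Il1rl1 and -0.045 for Il18r1. Leaving out single libraries gave ranges from -0.254 to 0.218 for Il18, from -0.022 to 0.426 for Il1rn and from -0.083 to 0.032 for Il1r1. The cause was not tested. Il1rap and Il1b kept their direction in every alternative that could test them. The replicate numbers were not taken to pair the mice, since nothing in the labels ties them. Deviations from the group means of same-numbered pairs correlated at 0.274, -0.006, 0.383, -0.223 and 0.333. As a hint from the data, 3 of 5 pairs matched best with their own number, and a tie between mice of the same number was not tested further. With the replicate block 1 gene and 2 transcripts were called, and none of the family. Depth limits Il1a, Il1b and Il18r1, which rest on about 45.9, 31.9 and 80.7 estimated reads per library.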
